A study of Mus musculus with 8 samples.

Results

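The interleukin-1 (IL-1) family ligands Il1a, Il1b, Il1rn, Il18 and Il33 and the receptor genes Il1r1, Il1r2, Il1rl1 and Il1rap were followed in hair-forming dental tissue of mice that lack Med1 in epithelia. These 9 genes were selected by symbol, on the basis of earlier results of the same contrast, from the 16593 genes named on the array. The platform annotation gave 16 probes for 8 of them, out of 25697 probes, and had none for Il1rl1, the receptor of IL-33, which was not analysed here. Total RNA came from the maturation stage (Mat) of the lower incisor of C57BL/6 mice at 10 weeks of age, and was hybridised to 8 Illumina MouseRef-8 bead arrays. The 4 control arrays (CON) came from littermates with floxed Med1 alleles (MED1 fl/fl) and no Cre, whose incisors formed enamel. The 4 knockout arrays (KO) came from MED1 fl/fl mice that also carried a Cre driven by the keratin 14 promoter, whose incisors made hairs and no enamel. Both groups thus share the floxed alleles and the strain, and the Cre acts in keratin 14 expressing epithelia only, so other cells of the tissue keep the intact alleles. The hair-generating tissue was dissected in KO and the equivalent place in CON, and tissue of 3 mice was combined before RNA was extracted. Whether each array had its own pool of mice is not settled by the labels, so that p-values and errors measure the spread between these arrays, which may be technical.

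IL-1α and IL-1β are alarm cytokines of epithelia and myeloid cells that bind the receptor IL-1R1 together with its accessory chain IL1RAP and signal through MyD88 and NF-κB. The family holds its own brakes, namely the receptor antagonist IL-1Ra, encoded by Il1rn, and the decoy receptor IL-1R2, encoded by Il1r2, which binds IL-1 without signalling. IL-1β and IL-18 are made as precursors that caspase-1 cleaves in inflammasomes, whereas IL-1α and IL-33 are active or made active without it, and keratinocytes of the skin are a well-known store of IL-1α, IL-1Ra and IL-33.

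In the mouse genome Il1a and Il1b lie near each other on chromosome 2, and Il1rn lies far from them on the same chromosome. Il1r2, Il1r1 and Il1rl1 lie close together on chromosome 1, while Il18, Il33 and Il1rap lie on chromosomes 9, 19 and 16. Promoter windows are shown for the members with the highest values in KO relative to CON that had a searched motif, because these members were higher together. Each window runs from 250 bases before to 50 bases after a RefSeq transcription start of the build GRCm38.p6, and all 9 members had at least 1 window, 14 in all. Capitals mark matches on either strand to a TATA box, with the letters TATAAA. The AP-1 motif was searched as TGANTCA on both strands and is in capitals as well. So are the C/EBP motif, searched as TTGCNNAA, and the NF-kB consensus. The Il1b window lies at chr2:129371090-129371389 on the minus strand, the Il1a window at chr2:129309923-129310222 on the minus strand, the first of 3 Il1rn windows at chr2:24336610-24336909 on the plus strand and the second of 2 Il33 windows at chr19:29945540-29945839 on the plus strand.
Il1b: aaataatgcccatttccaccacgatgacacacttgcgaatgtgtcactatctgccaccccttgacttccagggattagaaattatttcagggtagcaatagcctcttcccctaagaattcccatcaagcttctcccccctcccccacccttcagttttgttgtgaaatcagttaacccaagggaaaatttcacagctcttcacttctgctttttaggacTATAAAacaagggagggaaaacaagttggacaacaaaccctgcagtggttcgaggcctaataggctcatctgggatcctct
Il1a: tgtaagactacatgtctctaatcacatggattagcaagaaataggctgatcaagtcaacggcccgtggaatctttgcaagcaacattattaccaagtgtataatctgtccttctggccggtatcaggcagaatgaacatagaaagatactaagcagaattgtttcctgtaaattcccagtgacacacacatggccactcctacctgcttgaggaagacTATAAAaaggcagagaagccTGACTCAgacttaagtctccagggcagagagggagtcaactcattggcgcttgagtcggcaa
Il1rn: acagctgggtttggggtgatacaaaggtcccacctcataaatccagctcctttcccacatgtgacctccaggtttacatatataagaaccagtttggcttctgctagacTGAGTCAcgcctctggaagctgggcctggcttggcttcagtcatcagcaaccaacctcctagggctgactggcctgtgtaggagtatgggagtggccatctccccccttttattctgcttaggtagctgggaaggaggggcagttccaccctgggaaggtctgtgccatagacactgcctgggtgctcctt
Il33: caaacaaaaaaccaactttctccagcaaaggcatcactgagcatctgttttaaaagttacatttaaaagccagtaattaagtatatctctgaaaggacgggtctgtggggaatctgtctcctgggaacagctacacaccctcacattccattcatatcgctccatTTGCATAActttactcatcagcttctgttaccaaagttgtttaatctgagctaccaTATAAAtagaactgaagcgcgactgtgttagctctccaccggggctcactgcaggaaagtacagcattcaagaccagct
With the start site counted as 0, the Il1b window held TATAAA at -31 to -26, the Il1a window at -32 to -27 and the Il33 window at -29 to -24. An AP-1 match stood at -12 to -6 in Il1a and at -141 to -135 in Il1rn, and a C/EBP match at -85 to -78 in Il33. The palindromic AP-1 letters match both strands at the same place, and none of the matches printed above overlap each other. Of all 32851 promoter windows in the reference, 13.6% held TATAAA, 7.81% the AP-1 letters, 10.8% the C/EBP letters and 8.46% an NF-kB match. Of the windows not printed, those of Il1r2 and Il1rap held none of these motifs. The first Il1r1 window held a C/EBP match and the second an NF-kB match, the first Il1rl1 window held a C/EBP match, and TATAAA, on either strand, was found in the Il18 window at -175 to -170, the third Il1rn window at 14 to 19 and the first Il33 window at -203 to -198. A match describes the letters of the window and not a site in use, since the arrays measured RNA.

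The targeted gene was examined first. The Med1 probe bright enough to be tested fell by 0.76 on the log2 scale ± 0.13 (SE), from 8.30 ± 0.25 (SD, n = 4) in CON to 7.54 ± 0.18 (n = 4) in KO, with no overlap between the groups (limma, adjusted p = 0.00075). The other 3 probes of Med1 were below the detection filter, and where the probes lie relative to the floxed exons was not determined. Levels throughout are background-corrected, quantile-normalized log2 intensities, and a probe was called detected on an array at a detection p under 0.01 against the negative control beads. On each array 11554 to 13134 probes were detected at a mean intensity of 550.8 to 811.9, and Pearson's r across probes was 0.992 to 0.993 between arrays of a group and 0.911 to 0.923 between groups. The ameloblast markers Klk4, Enam, Ambn, Amelx and Mmp20 were detected on all 8 arrays, so markers of the labelled tissue were present in both groups. Of these, 3 (Klk4, Enam and Ambn) were higher and 0 lower in KO, beside 24.4% higher and 36.5% lower among all tested genes. The paper reports Klk4 as lower in KO at this stage at a younger age.

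Of the 9 members 7 had a probe that passed the filter of detection on at least 4 of the 8 arrays, and in all 7 the KO arrays lay above the CON arrays. Of the 9085 genes tested, 24.4% were higher and 36.5% lower in KO at an adjusted p under 5%, and for 23.3% all KO arrays exceeded all CON arrays. All 7 members lay past that threshold in the higher direction, but since they were selected on this contrast nothing is read from the count and no p is given for a member. Il1a, Il33 and Il1rap passed the filter through the KO arrays, which fixes, or for Il33 favours, their direction in advance. The remaining 4, Il1b, Il1rn, Il18 and Il1r2, were detected on all 8 arrays. In whole tissue, more cells of a type and more RNA per cell cannot be told apart.

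Among the agonists, Il1b, the inflammasome-dependent ligand, had the largest difference of the members. Its level was 7.48, 7.13, 6.84 and 7.05 on the CON arrays and 11.97, 12.16, 12.30 and 12.29 on the KO arrays. The groups were separated by a wide gap, and no array stood apart from its group. The means were 7.12 ± 0.27 (SD, n = 4) in CON and 12.18 ± 0.16 (n = 4) in KO, a difference of 5.05 ± 0.14 (SE), or 33.2-fold. The non-normalized intensity, which still contains the background, ran from 215.6 to 250.3 in CON and from 3875 to 6001.9 in KO. The size depended on the treatment of the background, since the same signals without background correction gave 19.4-fold, as did the values normalized by the authors.

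Il1a, which encodes the agonist that epithelial cells hold in store, was detected on no CON array and on all 4 KO arrays, so that in CON it was not well above background. Its level was 5.15, 4.72, 4.49 and 4.90 in CON and 7.38, 7.76, 7.60 and 7.38 in KO. The KO arrays lay close together and far above the highest CON array. The difference of 2.72 ± 0.14 (SE) includes unmeasured CON values, so that the fold is a bound, and Il1a was at least 4.11-fold higher in KO. A fold called "at least" sets the mean of the brighter group against the lowest detected signal of each dimmer array. The bound holds for background-corrected signals only, and without background correction the KO to CON ratio was 2.20-fold.

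Il1rn, the natural antagonist of both agonists, had the second largest difference on its brightest probe. With the mean of its 2 tested probes, the difference was 2.56 and no longer above those of Il1a, Il33 and Il1r2. On the brightest probe the level was 7.22, 7.05, 6.61 and 7.10 in CON and 10.48, 10.48, 10.51 and 10.94 in KO. The KO arrays were thus nearly equal apart from replicate 4, which was higher, and CON replicate 3 was the lowest array. The means rose from 6.99 ± 0.26 to 10.60 ± 0.23 (SD, n = 4 each), a difference of 3.61 ± 0.15 (SE) or 12.2-fold, and 7.12-fold without background correction. A second Il1rn probe was undetected in CON and detected on all KO arrays, at least 1.48-fold higher, and the third was detected on none of the 8 arrays. The probes of Il1rn therefore agreed in direction where measured but not in size, and which transcript each one reads was not determined.

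Il33, the nuclear alarmin of barrier epithelia and endothelium, was detected on 1 CON array and on all 4 KO arrays. Its level was 4.96, 5.24, 5.56 and 5.17 in CON and 7.61, 7.82, 7.99 and 8.01 in KO. The groups did not overlap, and the KO arrays spanned a narrow range. The difference was 2.63 ± 0.14 (SE), or 6.18-fold, but 3 of the 4 CON values were not above background, so that this size rests on the correction. Without background correction it was 2.36-fold.

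Il18, the other caspase-1 substrate of the family, differed far less than Il1b. Its level was 7.76, 8.08, 7.93 and 7.77 in CON and 8.08, 8.77, 8.71 and 8.58 in KO. KO replicate 1 was level with the highest CON array, so that the groups touched. The means were 7.89 ± 0.15 (SD, n = 4) and 8.54 ± 0.31 (n = 4), a difference of 0.65 ± 0.15 (SE) or 1.57-fold, which became 0.81 without KO replicate 1.

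**Figure D1:**
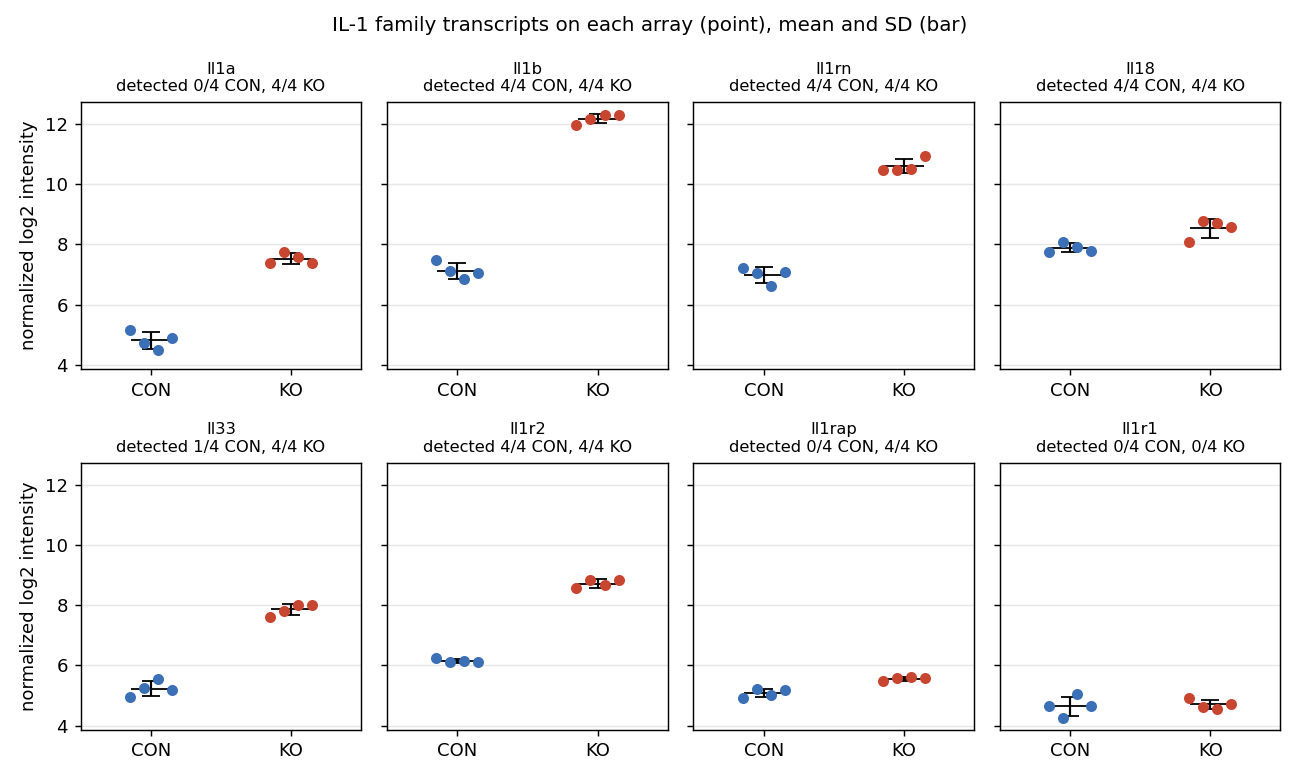
Normalized log2 intensity (vertical axis) of the main probe of 8 members on each CON (blue) and KO (red) array, with mean and SD over 4 arrays, and the number of arrays on which the probe was detected. Il1b rises from 7.12 to 12.18, Il18 nearly touches between groups and Il1r1 is undetected throughout; levels of different genes are not comparable.

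On the receptor side, Il1r2, which encodes the decoy, was detected on all 8 arrays, at 6.26, 6.11, 6.13 and 6.12 in CON and at 8.56, 8.82, 8.66 and 8.84 in KO. Both groups were tight, and only CON replicate 1 stood a little above its group. The means were 6.16 ± 0.07 and 8.72 ± 0.14 (SD, n = 4 each), a difference of 2.57 ± 0.08 (SE) or 5.92-fold, and 2.98-fold without background correction.

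Il1r1, the signalling receptor of IL-1α and IL-1β, was below background on all 8 arrays with both of its probes. Its brighter probe read 4.64, 4.27, 5.04 and 4.64 in CON and 4.90, 4.62, 4.56 and 4.73 in KO, values at which the order of arrays has no meaning. No fold is given, and whether the transcript was present below the reach of these probes cannot be read from the arrays.

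Il1rap, the accessory chain shared by the IL-1, IL-33 and IL-36 receptors, was dim. Its brightest probe read 4.93, 5.21, 5.01 and 5.17 in CON, where it was detected on none, and 5.47, 5.58, 5.61 and 5.57 in KO, where it was detected on all 4 arrays. The groups did not overlap, but the gap was small and the bound came to at least 1.05-fold, with a ratio of 1.10-fold when the background was not corrected. Of its 5 other probes, 3 were detected on 2 KO arrays each and 2 on none, so that the level of Il1rap rests on signal close to the background.

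In order of their differences on the brightest probe the members ran Il1b, Il1rn, Il1a, Il33, Il1r2, Il18 and Il1rap, with CON values of Il1a and Il33 that were mostly not above background. Without background correction Il1r2 (1.58) came before Il33 (1.24) and Il1a (1.14), and the authors' normalized values gave the same order. The differences of Il1a, Il33 and Il1r2 spanned 2.57 to 2.72, a range close to their SEs of 0.14, 0.14 and 0.08, and those of Il18 and Il1rap were 0.65 ± 0.15 and 0.48 ± 0.08. The median gene of the array was 0.12 lower in KO, and it was 0.21 lower under median scaling and 0.03 higher under cyclic loess. Relative to the median gene, Il1b was 5.17 higher as normalized here, 5.19 under median scaling and 5.22 under cyclic loess, while Il18 was 0.77, 0.79 and 0.81 higher. Of the probes called, 37.6% were higher in KO, against 30.6% under median scaling and 56.7% under cyclic loess, and no tested member was lower under any of these scalings. On the scale used here 5 members differed by more than 2-fold, as did 10.2% of all tested genes in the higher direction.

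**Figure D2:**
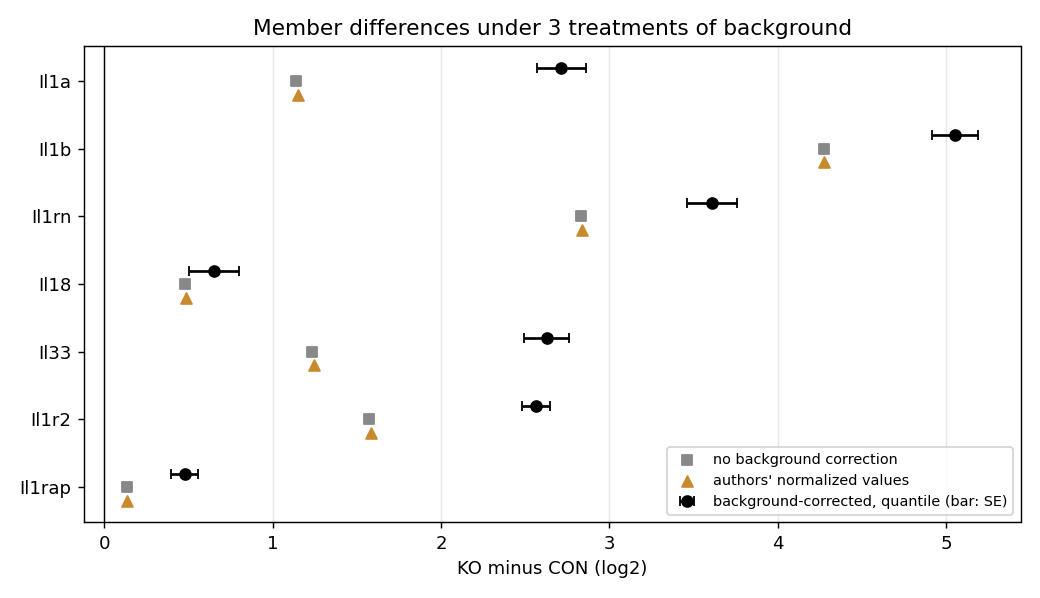
KO minus CON difference (log2, horizontal axis) of the 7 tested members from background-corrected signals (circles, bar SE), from signals without background correction (squares) and from the authors' normalized values (triangles). Every symbol lies above 0, and the differences of Il1a and Il33 shrink without background correction, from 2.72 to 1.14 and from 2.63 to 1.24.

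The other ligands of the family on the array belong to the IL-36 branch, which acts in skin. This list and those that follow were chosen with earlier results of these data known, so their counts are descriptions only. Of 5 listed ligands 4 had a probe and 2 were tested. Both were undetected in CON and passed the filter through the KO arrays, which fixes their direction, so that no p is given for them. Il36rn, listed on the array as Il1f5, encodes the IL-36 receptor antagonist, and its KO level was at least 1.85-fold higher (1.91 ± 0.10), or higher by 0.64 on the log2 scale without background correction. Il36a, listed as Il1f6, encodes an agonist and was at least 1.56-fold higher (1.65 ± 0.15), or higher by 0.54 without background correction. For both genes the value without background correction is less than the bound. Il36g, listed as Il1f9, and Il1f10 were undetected on all arrays, and Il36b had no probe. Agonist and antagonist of this branch were therefore both measured in KO, as were Il1a, Il1b and Il1rn.

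Of 7 other receptor genes 5 were tested, with 3 higher and 1 lower in KO, beside 24.4% higher and 36.5% lower among all tested genes. Of the 2 detected on all 8 arrays 0 were higher and 1 lower. The median difference of the 5 tested was 0.37, or 0.12 with the 2 genes undetected in CON at their bounds, against -0.12 over all tested genes. Both chains of the IL-18 receptor were undetected in CON and detected on all KO arrays, so that their direction too was fixed by the filter and no p is given. Il18r1, the binding chain, was at least 3.03-fold higher (2.25 ± 0.16), or higher by 0.87 without background correction, which is less than the bound. Il18rap, the accessory chain, was higher by 0.94 ± 0.08, or by 0.27 without background correction, at a level too dim for a fold. Il1rl2, the IL-36 receptor, was detected on 2 CON arrays and passed the filter through the KO arrays, so that no p is given. Il1rl2 was higher by 0.37 ± 0.14 with overlapping groups. Its call was lost without background correction and on leaving out CON replicates 1, 2 or 4 or KO replicates 1, 3 or 4. Sigirr, a membrane receptor that dampens IL-1 and Toll-like receptor signalling, was 1.84-fold lower (-0.88 ± 0.12, limma adjusted p = 0.00017). Il18bp, the soluble inhibitor of IL-18, was at 0.12 ± 0.09 (adjusted p = 0.27), Il1rapl2 was undetected on all arrays and Il1rapl1 had no probe.

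All 5 tested genes of precursor processing and release were past the threshold, 4 higher and 1 lower, beside 24.4% higher and 36.5% lower among all tested genes. The lower one was Casp1, the protease that cleaves the precursors of IL-1β and IL-18. Casp1 read 13.79, 13.81, 13.92 and 13.75 in CON and 12.69, 12.52, 12.44 and 12.51 in KO, a bright signal in both groups. It was 2.42-fold lower in KO (-1.28 ± 0.08, limma adjusted p = 3.9e-07), and every alternative setting kept it between -1.42 and -1.19. Casp1 thus moved opposite to Il1b and Il18 on the same arrays. Casp4, the inflammatory caspase that senses cytosolic lipopolysaccharide, was 2.80-fold higher (1.49 ± 0.08, adjusted p = 1e-07). Gsdmd, which encodes the pore protein gasdermin D, was 2.61-fold higher (1.38 ± 0.09, adjusted p = 4.4e-07), and Pycard, the inflammasome adaptor, was 2.57-fold higher (1.36 ± 0.13, adjusted p = 9.3e-06). Casp8 was 1.28-fold higher (0.36 ± 0.07, adjusted p = 0.0019), a call lost under median scaling. Of the sensors, Nlrp3 and Nlrp1a were undetected on all arrays, Aim2 and the ATP receptor gene P2rx7 were each detected on 1 KO array, and Nlrp1b and Nlrc4 had no probe.

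Of 14 tested genes of the intracellular cascade 4 were higher, 2 lower and 8 not past the threshold, with a median difference of 0.05. The share higher, 28.6%, was near the 24.4% of all tested genes. Irak2, a receptor-associated kinase, was 2.79-fold higher (1.48 ± 0.08, limma adjusted p = 2.1e-07), and Irak3, an inhibitory relative of it, was 2.23-fold higher (1.15 ± 0.12, adjusted p = 2.7e-05). Myd88, the adaptor that joins the receptors to these kinases, was 1.58-fold higher (0.66 ± 0.08, adjusted p = 5e-05). Peli1, a ubiquitin ligase, was 1.93-fold higher on its brighter probe (0.95 ± 0.16, adjusted p = 0.00056), while its other probe differed by 0.02 ± 0.13. Tab1, which activates the kinase TAK1, was lower by a small amount (-0.29 ± 0.07, adjusted p = 0.0049). Ikbkg, the regulatory subunit of the IκB kinase, read -0.22 ± 0.08 (adjusted p = 0.044) with overlapping groups, and its call was lost without CON replicates 3 or 4 or KO replicates 2, 3 or 4. Traf6, Tab2, Tab3, Ikbkb, Rela, Mapk8, Mapk14 and Tollip lay between -0.20 and 0.11 and did not pass. Tollip was called lower under 8 of the alternatives, among them no background correction (-0.16) and median scaling (-0.33), and Tab3 was called higher under 2, among them cyclic loess (0.28).

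Among 24 listed genes that IL-1 is known to induce, 18 were tested, 16 were higher and 0 lower, with a median difference of 1.91, or 1.81 with the 1 gene undetected in CON at its bound. Of the 12 detected on all 8 arrays 11 were higher, beside 24.4% of all tested genes, which passed the wider filter of at least 4 arrays. Of all probes detected on all 8 arrays, 2123 were called higher and 4443 lower. Since the list was chosen with earlier results of these data known, nothing is read from these counts. The listed genes also answer to other inflammatory signals. Cxcl1, a neutrophil-attracting chemokine, rose from 7.53 ± 0.11 to 11.48 ± 0.05 (SD, n = 4 each), 15.5-fold (3.95 ± 0.08, limma adjusted p = 2.2e-10). Saa3, an acute-phase protein of epithelia and macrophages, was detected on 1 CON array and differed by 6.50 ± 0.18, or by 4.39 without background correction. Cxcl5, a further neutrophil chemokine, was detected on 2 CON arrays and differed by 4.26 ± 0.16, or by 2.75 without background correction. Saa3 and Cxcl5 passed the filter through the KO arrays, as did Tnf, Cxcl2, Mmp3 and Csf3, so no p is given for them. The count higher and both medians include Tnf, Saa3, Cxcl2, Mmp3 and Cxcl5, and none of these is among the 12 detected on all 8 arrays. Mmp9, a matrix protease, was 5.87-fold higher (2.55 ± 0.10, limma adjusted p = 1.2e-08). Sod2 (0.22 ± 0.10, limma adjusted p = 0.075) did not pass, and neither did Csf3 (-0.09 ± 0.24), which was detected on 1 CON array. Il6, Ptgs2, Nos2, Csf2 and Ccl20 were undetected on all arrays, and Ccl2 was detected on 3 KO arrays only and not tested. Whether the undetected transcripts were absent or lay below the reach of the array cannot be read from these signals.

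**Figure D3:**
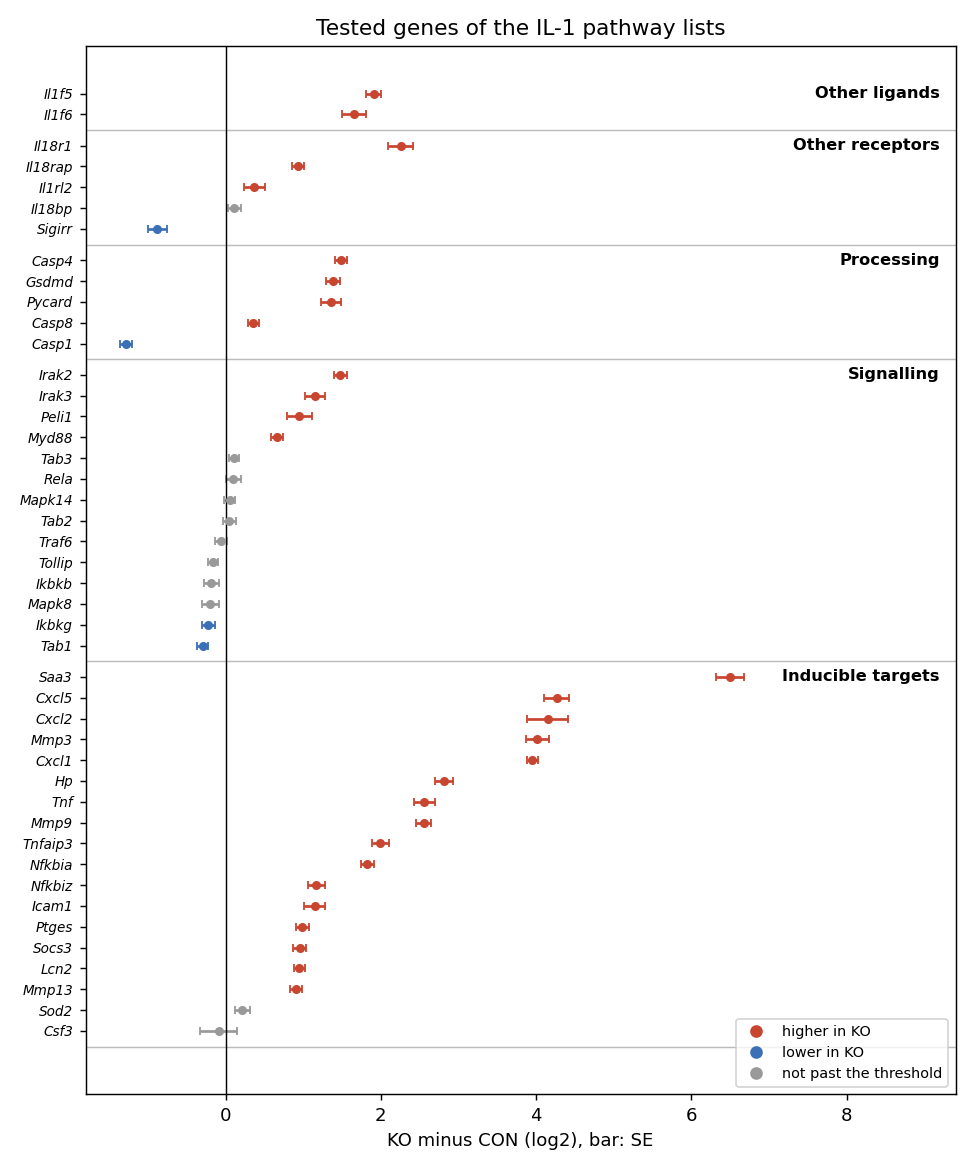
KO minus CON difference (log2, horizontal axis, bar SE) of the 44 tested genes in 5 lists of the IL-1 pathway, in red where higher, blue where lower and grey where not past the adjusted p of 5%. Of these genes 29 are higher and 4 lower, beside 24.4% higher and 36.5% lower among all tested genes. Several of the higher ones passed the filter through the KO arrays only. With only probes detected on all 8 arrays, 19 are higher and 5 lower, beside 2123 higher and 4443 lower among all probes under that filter. Casp1 and Sigirr lie on the left, the signalling list around 0 and Saa3 at 6.50 on the right.

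Markers of several other cell types were higher in KO as well. Over all tested genes, 24.4% were higher and 36.5% lower in KO. The summed linear level of 9 macrophage markers on the array was 1952 to 2138 in CON and 7360 to 8182 in KO, and 7 of 9 tested were higher, among them Cd14 and Adgre1. All 10 tested neutrophil markers were higher, with sums of 11360 to 12040 and 29490 to 31830, while Cxcr2 and Csf3r were undetected in CON and Mmp8 on all arrays. S100a8 (14.13) and S100a9 (12.66) had the highest mean log2 levels of this list in KO and weigh most in its KO sum. The paper lists both among genes of epidermal development that were higher in KO at a younger age, so the sum need not measure neutrophils alone. The 5 tested markers of cornified epidermis were all higher, with sums of 2745 to 3802 and 57710 to 59330, and Ivl was undetected. Of 7 lymphoid markers 5 were tested and 4 were higher (204.1 to 233.8 and 719.2 to 827.6), with Cd4 and Cd8a undetected on all arrays. Of 7 mast cell markers 1 was tested and higher (155.4 to 172.7 and 230.2 to 266.8), with Ms4a2, Tpsab1 and Tpsb2 undetected. In CON no mast cell marker was detected, and of the lymphoid markers only Il7r and Gata3 were, so these CON sums are mostly background. Cd163, Krt1, Cd3d, Cd3e, Cd3g and Cpa3, like Cxcr2 and Csf3r, were undetected in CON. They passed the filter through the KO arrays, which fixes their direction. Elane and Myh4, detected on 1 CON array, and Il7r, on 2, also passed through the KO arrays. Of the endothelial markers 4 of 5 tested were higher (3075 to 3357 and 4691 to 5423), and of the skeletal muscle markers 5 of 5 (9945 to 10880 and 27570 to 31680). Of the fibroblast markers 2 of 5 were higher and 3 did not pass (33050 to 35300 and 39870 to 47220), and ameloblast markers summed to 38090 to 40710 and 45990 to 51060. The part of these cell types in the differences of Il1a, Il1b, Il1rn, Il33, Il18 and Il1r2 was not tested.

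**Figure D4:**
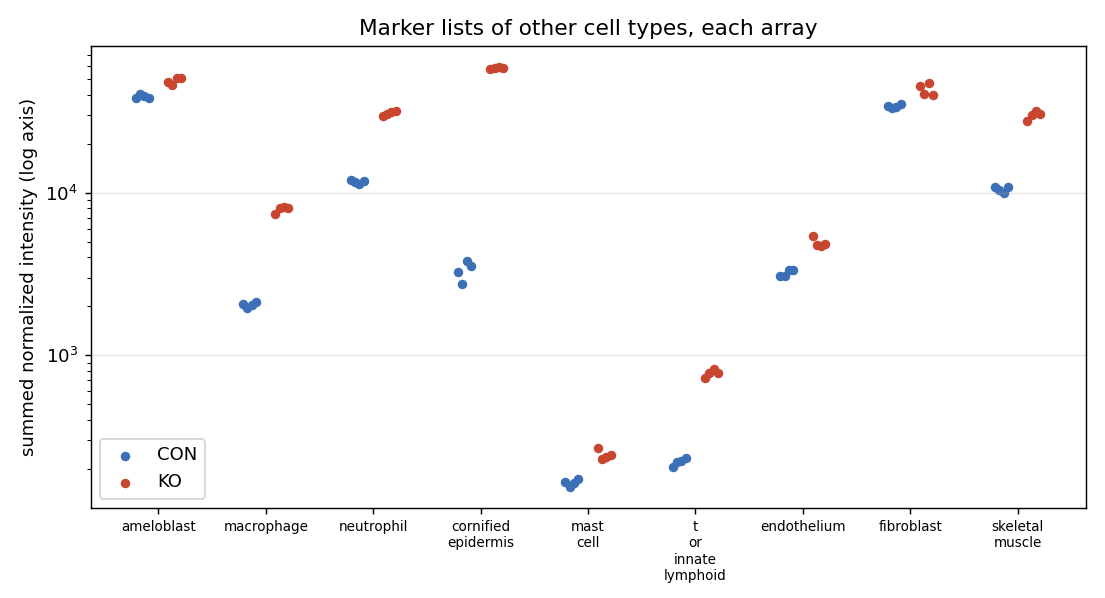
Summed normalized linear intensity (log vertical axis) of the markers of each cell type on every CON (blue) and KO (red) array. The largest gap is that of the cornified epidermis list, from 2745 to 3802 in CON up to 57710 to 59330 in KO.

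Genes whose pattern was most like that of the 3 members with the largest differences were ranked by the root mean square distance over the 8 arrays after each gene's CON mean was subtracted. Nearest to Il1b were the macrophage chemokine gene Ccl3 (distance 0.14, difference 4.91), the keratin gene Krt76 (0.17, 4.99) and Lce1b (0.17, 5.11), which encodes a protein of the cornified envelope. Nearest to Il1rn were Ly6g6c (0.19, 3.53), Cd84 (0.20, 3.63) and Plek (0.21, 3.52), the latter pair known from blood cells. Nearest to Il1a were Btk (0.16, 2.83), a kinase of B cells and myeloid cells, Cd52 (0.18, 2.61), a leukocyte surface antigen, and Trem1 (0.19, 2.79), a receptor of neutrophils and monocytes. Genes known from leukocytes and from cornified epithelium thus both stood near Il1b. This ranking describes 2 groups of 4 arrays whose first principal component held 88.0% of the variance, and says nothing of shared control.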

How the data were processed

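Mat-stage tissue was profiled on 8 arrays. The submitters' processing notes name GenomeStudio for the authors' bead summaries and give no version. The deposited intensity of each probe is linear and not normalized between arrays, and beside it stands the detection p-value that the authors' software computed against negative control beads. The intensity values that the authors normalized, also deposited, served as an alternative. No sample column was left unused (0).

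Background correction (limma 3.58.1 in R 4.3.3, normexp with negative controls inferred from detection p-values, offset 16), quantile normalization and log2 followed. Probes with detection p under 0.01 on at least 4 of 8 arrays (12838) were fitted with lmFit and eBayes, KO minus CON, as a two-sided test with no covariate, with adjustment by Benjamini-Hochberg over all 12838. The fit was tested on simulated data. A gene was represented by its probe with the highest mean. Bright and dim probes differ in precision, and 44.96% to 51.11% of probes were detected per array.

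Of 25697 probes 23978 had 1 symbol, 0 several and 1719 none, and 23962 matched the reference gene table. Members and lists were chosen with earlier results of these data known. Named genes were all members, Med1, up to 4 genes per list by moderated statistic, genes of classes with 5 or fewer, and the 3 nearest genes of 3 members. Same-numbered CON and KO arrays did not deviate together (correlations -0.01 to 0.02), so the numbers were not taken as pairs. No 2 arrays were identical (0 pairs). Promoters came from RefSeq (GRCm38.p6). Python 3.11.15, pandas 2.3.3 and matplotlib 3.10.9 were used. Alternatives were no background correction, the authors' normalized values, cyclic loess or median scaling, other detection filters, an offset of 50, array weights, robust variance, each array left out in turn, a block for the replicate number, the mean of a gene's probes and the methods' t-test.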

Additional observations from a re-analysis of the deposited data

Results flagged for a closer look

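In 8 of 104 groups of 4 arrays examined among the members and pathway genes, 1 array lay far from the other 3, as measured by its gap to the nearest array over the whole range of the group. Chance alone gives about 1 such group in 20. For Il1rn, KO replicate 4 stood at 10.94 above the other KO arrays at 10.48 to 10.51 (gap 0.922 of the range), and the difference stayed between 3.47 and 3.68 when any single array was left out. For Il1r2, CON replicate 1 stood at 6.26 above 6.11 to 6.13 (0.861), and the difference stayed between 2.52 and 2.63. Among the signalling genes, KO replicate 1 was low for Tab1 (0.867) and high for Ikbkb (0.858) and Mapk14 (0.857), and CON replicate 4 was low for Mapk8 (0.901). Without KO replicate 1 Ikbkb passed the threshold as lower (-0.27). Among the targets, CON replicate 4 was high for Mmp3 (0.914) and CON replicate 3 for Mmp13 (0.834).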

How the results depend on the processing

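No difference of a tested member changed sign under any alternative. Of 137 member values 116 moved by less than the spread between arrays and 21 by more, 19 of these towards smaller differences. Many of the 116 could not move, since other detection filters, robust variance and the replicate block leave a member's difference unchanged. Of the 21, 6 arose without background correction, 6 with the authors' normalized values and 6 with an offset of 50. The dim members Il1a, Il33 and Il1rap depended most on this choice. With only probes detected on all 8 arrays, fewer genes could be tested, and 4 members and 19 pathway genes were past the threshold as higher. Of all probes under that filter, 2123 were called higher and 4443 lower. The methods' t-test at its own threshold on p and fold called 3268 probes in place of 7665, with 2 pathway genes lower in place of 4, and Il18 and Il1rap were not called by it. With the replicate number as a block (replicate block) 7390 probes were called, and the call of Ikbkg was lost. The chip could not be used as a block, since the file headers name none. Signal over background limits Il1r1, Il1rap and the CON levels of Il1a and Il33.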
